A study of Urosaurus graciosus
Urosaurus ornatus and Urosaurus graciosus and Urosaurus ornatus with 18 samples.

Results

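Lizards, like birds, are largely uricotelic: most waste nitrogen leaves the body as uric acid, which is made in the liver along the purine pathway. Glutamine synthetase traps ammonia as glutamine, glutamine and glycine nitrogen is built into inosine monophosphate (IMP) by the de novo purine enzymes, and IMP is broken down to hypoxanthine, xanthine and uric acid, with xanthine dehydrogenase at the last steps. The genes described here are 8 of this route, chosen by symbol (XDH, PPAT, GART, PAICS, ATIC, ADSL, PNP and GLUL), among 22773 rows of the count table. A row carried the symbol for 5 of the 8 (PPAT, ADSL, ATIC, XDH and GLUL), all 5 passed the filter on low counts, and GART, PAICS and PNP were not analysed here.

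Transcripts were counted in livers of 18 male Urosaurus lizards, in 6 groups of 3 animals: hybrids at 40 °C and at 36 °C, U. graciosus at 40 °C and at 36 °C, and U. ornatus at 40 °C and at 36 °C. Every animal had been held at its temperature for 48 h, and each was measured at 1 temperature only, so the animals of a group are separate animals. The labels give neither the cross nor the generation of the hybrids, and the series title speaks of introgressed mitochondrial DNA, so the hybrids cannot be read as a first-generation cross. The series asks about antioxidant gene expression under heat, and the nitrogen route was no stated target of it.

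Animals are named by the letters of the labels: I, K and X (hybrids, 40 °C), A, B and D (hybrids, 36 °C), P, Q and T (U. graciosus, 40 °C), J, R and S (U. graciosus, 36 °C), L, N and O (U. ornatus, 40 °C), and E, F and H (U. ornatus, 36 °C). Libraries held 15780346 to 35002548 counts. Levels are counts scaled to the library total (CPM, after TMM scaling), which compare a gene between animals but not 1 gene with another, since lengths were not used. Differences are log2 values with standard errors (SE) from edgeR's quasi-likelihood test over 15856 genes, and a gene was called at a Benjamini-Hochberg adjusted p under 0.05. Libraries X and O had the highest scaling factors, 1.43 and 1.35, and X, O and T had the lowest quality weights in limma, 0.160, 0.437 and 0.511. Hepatocyte markers (13 of 15 with a row) summed to 33518 CPM in X and 38782 CPM in O, the lowest of the 18 libraries, against up to 154224 CPM in B, the highest. Proliferation markers (13 of 14) summed to 678 CPM in X and 29.0 to 88.6 CPM in the rest. Stellate cell and fibroblast markers (8 of 8) summed to 2941 CPM in X and 76.8 to 672 CPM in the rest. X also had the highest cholangiocyte sum (56.6 CPM) and the lowest erythrocyte sum (18.7 CPM). Cytosolic heat shock genes (6 of 6) summed to 560 to 16920 CPM at 40 °C and 306 to 604 CPM at 36 °C. In whole liver, fewer cells of a type and less RNA per cell cannot be told apart.

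PPAT encodes amidophosphoribosyltransferase, which commits phosphoribosyl pyrophosphate (PRPP) and glutamine to purine synthesis. In hybrids it stood at 236, 302 and 177 CPM in I, K and X at 40 °C, against 292, 893 and 484 CPM in A, B and D at 36 °C. In U. graciosus it stood at 350.4, 266 and 136 CPM in P, Q and T at 40 °C, against 352, 311 and 450.3 CPM in J, R and S at 36 °C. In U. ornatus it stood at 311, 303 and 351 CPM in L, N and O at 40 °C, against 411, 525 and 326 CPM in E, F and H at 36 °C. The heated animals lay low within each lineage, but the groups overlapped in all 3. Of the 9 heated animals, 6 lay below every 36 °C animal of their own lineage and none above every one. As many or more did so for 7.43% of all genes tested.

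The group means of PPAT were 238 ± 62.3 CPM at 40 °C and 556 ± 307 CPM at 36 °C in hybrids, 251 ± 108 and 371 ± 71.7 CPM in U. graciosus, and 321 ± 25.7 and 420.3 ± 99.9 CPM in U. ornatus (SD, n = 3 each). Averaged over the lineages, the difference between 40 °C and 36 °C was -0.73 on the log2 scale (SE 0.23), with an adjusted p of 0.124 by edgeR. The differences within lineages were -1.22 (SE 0.39) in hybrids, -0.57 (SE 0.39) in U. graciosus and -0.39 (SE 0.39) in U. ornatus, and none was called (adjusted p = 0.569, 0.894 and 0.655). They share the sign in all 3 lineages, as for 17.2% of all genes that lay below 0 in each. Between lineages PPAT averaged 397 CPM in hybrids, 311 CPM in U. graciosus and 371 CPM in U. ornatus (n = 6 each), and no lineage difference was called.

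GLUL encodes glutamine synthetase, which in the uricotelic liver of birds sits in mitochondria and takes up ammonia as glutamine. In hybrids it stood at 279, 304 and 238 CPM in I, K and X at 40 °C, against 274, 1679 and 218 CPM in A, B and D at 36 °C. In U. graciosus it stood at 239, 173 and 227 CPM in P, Q and T at 40 °C, against 409, 407 and 411 CPM in J, R and S at 36 °C. In U. ornatus it stood at 195, 148 and 147 CPM in L, N and O at 40 °C, against 217, 374 and 194 CPM in E, F and H at 36 °C. The U. graciosus groups did not overlap, and the heated ones were lower, as for 7.45% of all genes tested there. The U. ornatus groups overlapped, with L just above H, and in hybrids the only high animal was B. No member separated the temperatures without overlap in hybrids, where 5.11% of all genes did so with higher and 5.76% with lower levels at 40 °C.

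Of the 9 heated animals, 5 lay below every 36 °C animal of their lineage for GLUL and none above every one, and as many or more did so for 15.2% of genes. The averaged difference between temperatures was -1.01 (SE 0.32), with an adjusted p of 0.127 by edgeR. Within lineages it was -1.40 (SE 0.56) in hybrids, -0.94 (SE 0.55) in U. graciosus and -0.68 (SE 0.55) in U. ornatus, none of them called (adjusted p = 0.587, 0.872 and 0.561). Library B carried the hybrid value: without it the hybrid difference was 0.15, with the sign turned round, and the averaged one was -0.49. With DESeq2 in place of edgeR, PPAT and GLUL were both called for the averaged difference at an adjusted p of 0.0318, and both were lower at 40 °C. In that comparison DESeq2 called 5.39% of the genes it gave an adjusted p.

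Adenylosuccinate lyase, encoded by ADSL, acts in the de novo route and again in the branch to AMP. Over the 9 heated animals ADSL ran from 267 CPM in O to 956 CPM in K, with a median of 488 CPM. Over the 9 animals at 36 °C it ran from 372 CPM in R to 910.3 CPM in H, with a median of 578 CPM. Heated U. graciosus were close together at 484 ± 3.99 CPM, while heated hybrids spread over 624 ± 328 CPM (SD, n = 3 each). The averaged difference between temperatures was -0.16 (SE 0.24, adjusted p = 0.769 by edgeR). No difference between groups or lineages was called for ADSL.

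ATIC encodes the bifunctional enzyme that closes the purine ring and yields IMP. In hybrids it stood at 3441, 3873 and 1313 CPM in I, K and X at 40 °C, against 3419, 3432 and 3057 CPM in A, B and D at 36 °C. In U. graciosus it stood at 4146, 2616 and 2470 CPM in P, Q and T at 40 °C, against 3524, 2879 and 3334 CPM in J, R and S at 36 °C. In U. ornatus it stood at 1382, 2011 and 824 CPM in L, N and O at 40 °C, against 1911, 2338 and 2255 CPM in E, F and H at 36 °C. Of the 6 hybrids 5 lay above all 6 U. ornatus, X being the exception, and all 6 U. graciosus lay above them. The averaged difference between temperatures was -0.30 (SE 0.23, adjusted p = 0.508 by edgeR), and 5 heated animals lay below and 3 above every 36 °C animal of their lineage. Within lineages it was -0.20 (SE 0.39) in hybrids, -0.08 (SE 0.39) in U. graciosus and -0.63 (SE 0.39) in U. ornatus, none of them called.

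XDH encodes xanthine dehydrogenase, which oxidises hypoxanthine to xanthine and xanthine to uric acid. Its counts were low in every library but 1. In hybrids XDH stood at 2.09, 0.12 and 1.05 CPM in I, K and X at 40 °C, against 0.84, 2.15 and 0.25 CPM in A, B and D at 36 °C. In U. graciosus it stood at 0.68, 3.04 and 1.0 CPM in P, Q and T at 40 °C, against 0.99, 1.23 and 2.66 CPM in J, R and S at 36 °C. In U. ornatus it stood at 1.32, 1.40 and 90.6 CPM in L, N and O at 40 °C, against 2.98, 1.98 and 0.70 CPM in E, F and H at 36 °C. Library O thus stood alone, and the other 17 libraries overlapped in every group.

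The XDH count was 1935 in O and 3 to 89 in each of the other 17 libraries, which together held 609. O lay 29.8-fold above the highest of the others, Q. XDH was the only gene of the 15856 tested (0.00631%) with so large a ratio of O to the next library. Kidney markers (5 of 6 with a row) summed to 7.54 CPM in O and to 0.553 to 22.2 CPM in the rest, with UMOD at 3.51, SLC34A1 at 2.90 and SLC12A3 at 1.1 CPM and SLC12A1 at 0 in O. Macrophage markers (6 of 9) summed to 355 CPM in O and to 236 to 1085 CPM in the rest. Skeletal muscle markers (10 of 12) summed to 56.7 CPM in O and to 6.69 to 159.8 CPM in the rest, and endothelial markers (7 of 7) to 246 CPM in O and to 160.5 to 269 CPM in the rest. Hepatocyte markers were second lowest and cytosolic heat shock genes second highest in O, at 38782 and 3512 CPM. The part of RNA quality, of cell makeup or of read mapping in the XDH count of O was not tested.

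For XDH the difference between 40 °C and 36 °C was 4.04 (SE 1.39) in U. ornatus, -0.02 (SE 1.31) in hybrids and -0.01 (SE 1.31) in U. graciosus, none of them called (adjusted p = 0.165, 1 and 1 by edgeR). Without O the U. ornatus difference was -0.48, and the averaged difference was -0.17 in place of 1.34 (SE 0.75). DESeq2 gave XDH no adjusted p in any comparison. The row named XDH thus held few counts in 17 of 18 livers at both temperatures, and these leave wide errors around any difference. Whether rows with placeholder names hold further XDH reads was not tested, so the level of XDH in the liver is not given by this row alone.

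**Figure D1:**
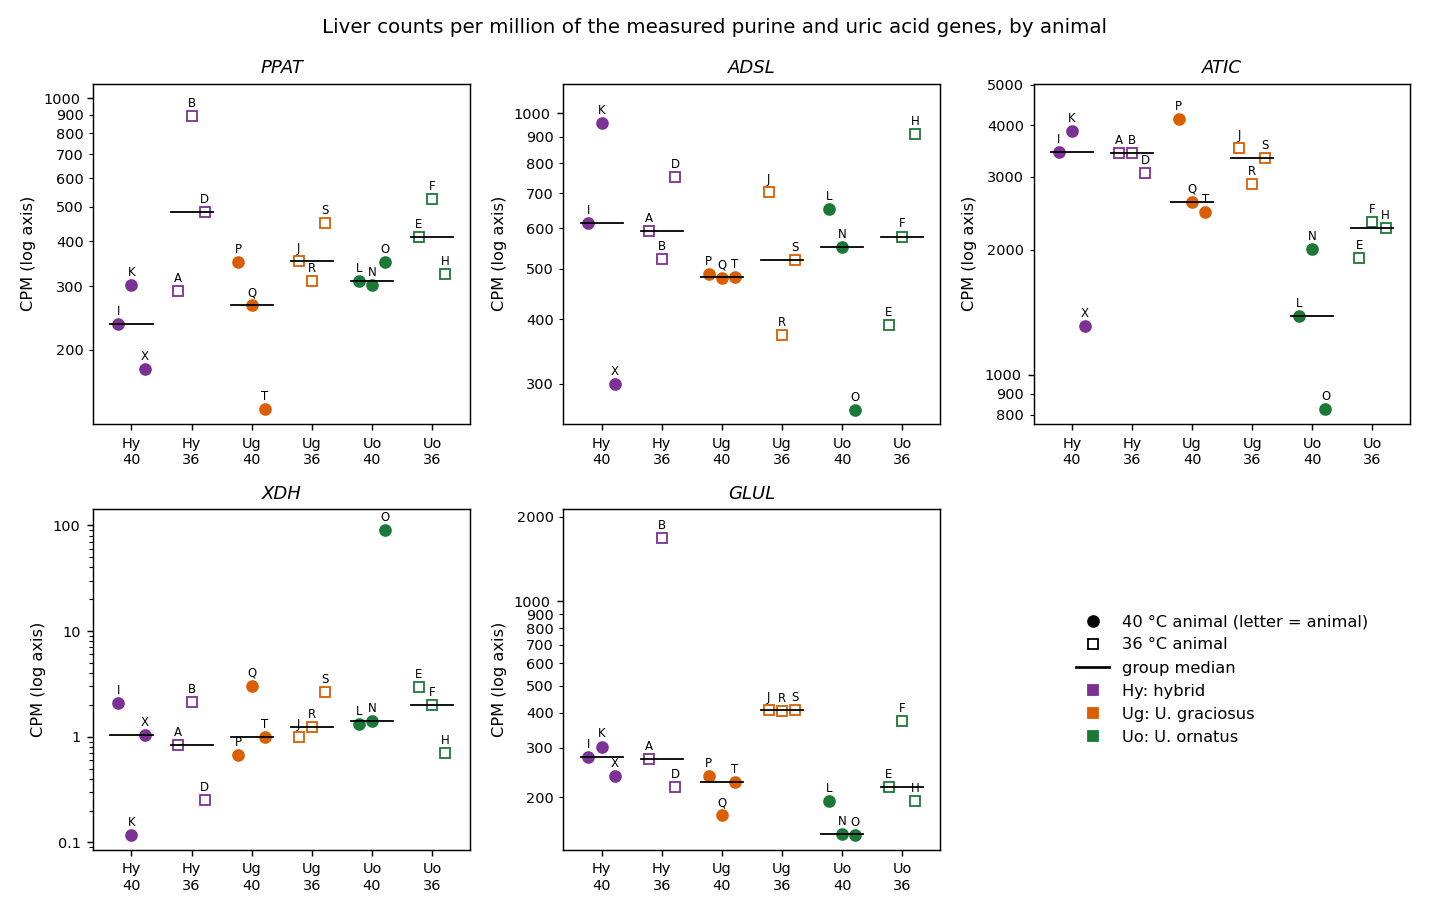
Liver CPM (log axis) of the 5 measured members by animal in the 6 groups (Hy for hybrids, Ug for U. graciosus, Uo for U. ornatus, with the temperature in °C); each point is 1 animal with its letter and lines are group medians. XDH stood at 90.6 CPM in O and at no more than 3.04 CPM elsewhere, GLUL at 1679 CPM in B and at no more than 411 CPM elsewhere, and ATIC was higher in all U. graciosus than in all U. ornatus.

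No heat difference of the 5 members passed the threshold in edgeR. For the averaged heat difference 0 of 5 members were called, with 0.996% of all genes called, and 2 members, PPAT and GLUL, had an unadjusted p under 0.05, as had 17.9% of all genes. DESeq2 called 2. In hybrids and in U. graciosus 0 of 5 members were called by edgeR, and 0% of all genes. The count with an unadjusted p under 0.05 was 2 members in hybrids, with 7.81% of all genes, and 0 in U. graciosus, with 6.10%. Without B that count in hybrids was 0, without X it was 1, and the PPAT difference there was -0.70 without B. In U. ornatus 0 of 5 were called, with 0.782% of all genes, and 1, XDH, had an unadjusted p under 0.05, as had 16.7% of all genes. DESeq2 called no member within a lineage. The median averaged difference was -0.30 over the members and 0.03 over all genes.

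The heat differences were also compared between lineages. None of the 5 members was called for hybrids against U. graciosus or for hybrids against U. ornatus, where 0% of all genes were called. None was called for U. graciosus against U. ornatus, where 0.00631% were. At an unadjusted p under 0.05 there were 0, 1 and 1 members in these 3 comparisons, with 3.44%, 9.64% and 7.46% of all genes. DESeq2 called no member in any of them. The 1 member was XDH in both cases. Its differences of heat differences were -4.06 (SE 1.87) for hybrids against U. ornatus and -4.05 (SE 1.85) for U. graciosus against U. ornatus, which share the U. ornatus animals. Without O they were 0.48 and 0.46.

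**Figure D2:**
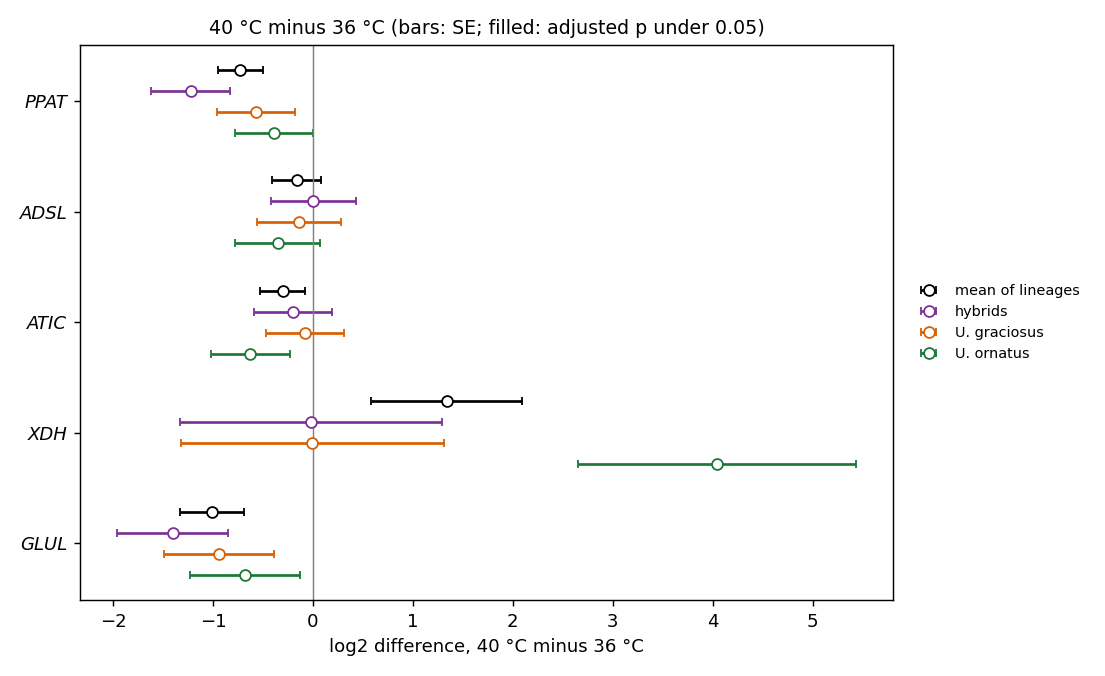
Log2 difference between 40 °C and 36 °C for each member, averaged over the lineages and within each lineage; bars are SE and open symbols did not pass an adjusted p of 0.05. PPAT, ATIC and GLUL lay below 0 in all 3 lineages, as did 17.2% of all genes. GLUL in hybrids moved to 0.15 without B. XDH lay at 4.04 in U. ornatus, or -0.48 without O, and near 0 in the other lineages.

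Lineage differences were called for 3 of the 5 members. ATIC was higher in hybrids and in U. graciosus than in U. ornatus, GLUL was higher in hybrids than in U. ornatus, and XDH was lower in hybrids than in U. ornatus. Between hybrids and U. ornatus 3 of 5 members were called, 2 higher and 1 lower in hybrids, where 35.2% of all genes were called. Between U. graciosus and U. ornatus 1 of 5 was called, with 32.2% of all genes. Between hybrids and U. graciosus 0 of 5 were called, with 1.82% of all genes, and none had an unadjusted p under 0.05. Against the midpoint of the parents 0 of 5 were called in edgeR, with 16.3% of all genes, and 1, GLUL, had an unadjusted p under 0.05.

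ATIC averaged 3089 ± 908 CPM in hybrids, 3161 ± 630.2 CPM in U. graciosus and 1787 ± 580 CPM in U. ornatus (SD, n = 6 each). It was higher by 0.82 (SE 0.28) in hybrids than in U. ornatus, with an adjusted p of 0.0318 by edgeR. It was higher by 0.86 (SE 0.28) in U. graciosus than in U. ornatus, with an adjusted p of 0.0281 by edgeR. The 6 U. graciosus did not overlap the 6 U. ornatus, as for 7.23% of all genes in that direction. Hybrids and U. graciosus differed by -0.04 (SE 0.28, adjusted p = 0.976). The 2 called differences share the U. ornatus animals. With 1 library left out, ATIC lost its call for hybrids against U. ornatus without I, K, A, B, L, O, E, F or H, at 0.68 to 0.85 (adjusted p = 0.0510 to 0.0828). It lost that for the parents without P, J, L, O or E, at 0.72 to 0.85 (adjusted p = 0.0542 to 0.0782).

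On a scale where the mean log2 level of U. ornatus is 0 and that of U. graciosus is 1, the hybrids' ATIC lay at 1.16, 1.36 and -0.41 in I, K and X at 40 °C and at 1.15, 1.16 and 0.97 in A, B and D at 36 °C. Of the 6 hybrids 5 lay near the U. graciosus mean or past it, and X lay past the U. ornatus mean. The parents' own animals ran from -1.17 (O) to 0.53 (F) in U. ornatus and from 0.62 (T) to 1.47 (P) in U. graciosus. Each hybrid thus lay within the range of a parent. The summed hepatocyte markers ran from 33518 to 154224 CPM in hybrids, from 77524 to 152405 CPM in U. graciosus and from 38782 to 113991 CPM in U. ornatus. X and O held both the lowest marker sums and the lowest ATIC levels, while within U. graciosus T held the highest marker sum and the lowest ATIC. The part of hepatocyte RNA in the ATIC difference was not tested. At 36 °C alone ATIC differed by 0.61 between hybrids and U. ornatus (adjusted p = 0.299) and by 0.58 between the parents (adjusted p = 0.336), and at 40 °C alone by 1.03 and 1.13 (adjusted p = 0.0801 and 0.0631), all by edgeR. ATIC was therefore called with both temperatures together and at neither alone.

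GLUL averaged 498 ± 579 CPM in hybrids, 311 ± 110 CPM in U. graciosus and 212 ± 83.8 CPM in U. ornatus (SD, n = 6 each), with medians of 276, 323 and 195 CPM. It was higher by 1.11 (SE 0.39) in hybrids than in U. ornatus, with an adjusted p of 0.0379 by edgeR. Without B the difference was 0.33, with an adjusted p of 0.213. Without I, K, L, N, O, E or H it lay at 1.02 to 1.18 and was not called either (adjusted p = 0.0501 to 0.0803). GLUL in B lay 4.09-fold above the next library, S, and 4 of the genes tested (0.0252%) had so large a ratio there. PPAT was also highest in B, 1.70-fold above the next library, as for 59 genes (0.372%).

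XDH averaged 1.08 ± 0.88 CPM in hybrids and 16.5 ± 36.3 CPM in U. ornatus (SD, n = 6 each), with medians of 0.94 and 1.69 CPM. It was lower in hybrids by a log2 difference of -2.81 (SE 0.95, adjusted p = 0.0321 by edgeR). Without O the difference was -0.55, with an adjusted p of 0.549. Without K, X, A, D, E or F it lay at -2.79 to -2.54 and was not called either (adjusted p = 0.0506 to 0.0698). At 40 °C alone, where O stands, XDH was called at -4.84 (SE 1.45, adjusted p = 0.0311), beside 18.4% of all genes. At 36 °C alone it was -0.78 (adjusted p = 0.719), also beside 18.4%. Hybrids and U. ornatus overlapped for XDH, as for the other 4 members, while 6.62% of all genes were higher and 6.82% lower in hybrids without overlap. The size of the XDH difference thus rested on O, as that of GLUL did on B.

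**Figure D3:**
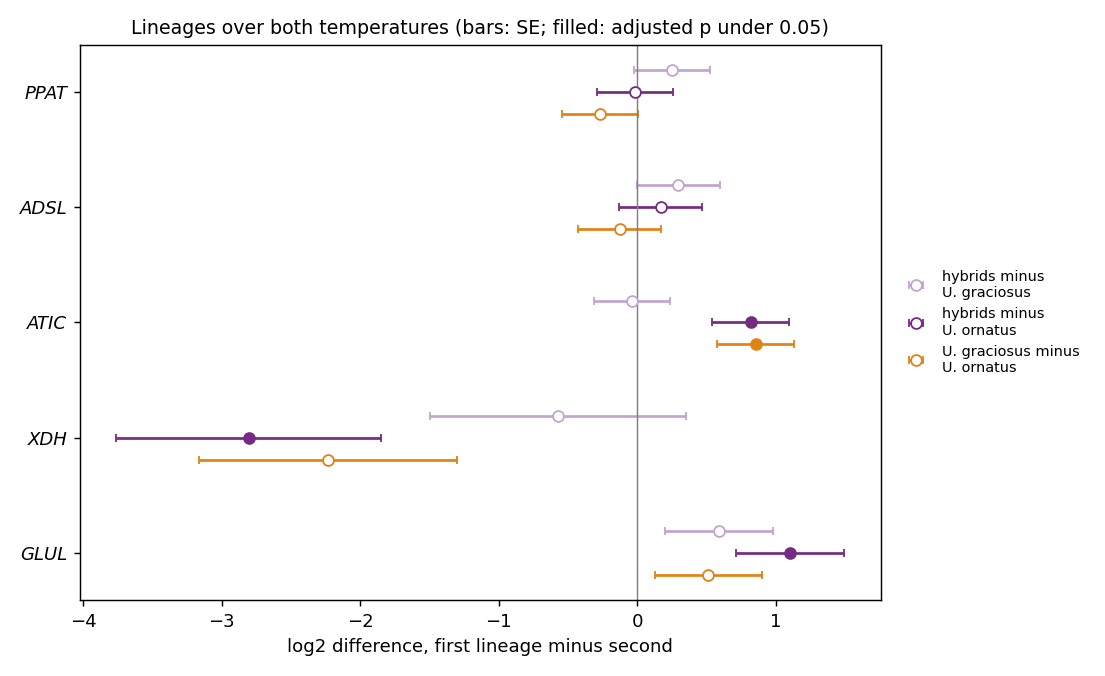
Log2 differences between lineages for each member, averaged over both temperatures; bars are SE and filled symbols passed an adjusted p of 0.05. ATIC was higher in hybrids (0.82) and in U. graciosus (0.86) than in U. ornatus, and differed by -0.04 between hybrids and U. graciosus.

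**Figure D4:**
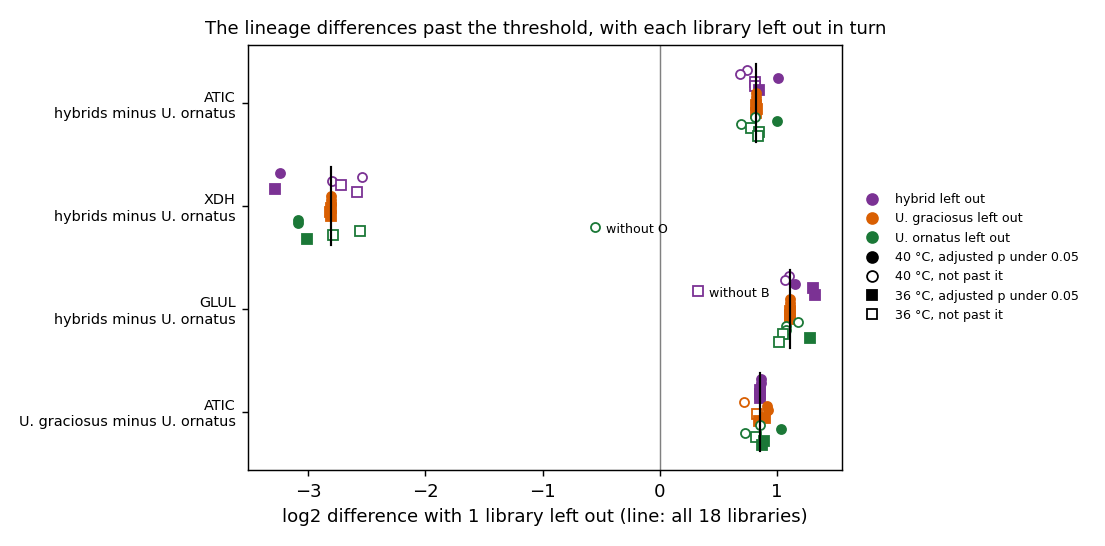
The 4 called lineage differences recomputed with each of the 18 libraries left out in turn, as log2 differences; filled symbols kept an adjusted p under 0.05 and vertical lines mark the value with all libraries. ATIC stayed between 0.68 and 1.03 in both comparisons, while XDH moved to -0.55 without O and GLUL to 0.33 without B.

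Ordered by group mean, PPAT was highest in hybrids at 36 °C, then in U. ornatus and U. graciosus at 36 °C, U. ornatus and U. graciosus at 40 °C, and hybrids at 40 °C, so that all 3 groups at 36 °C stood above all 3 at 40 °C. GLUL was highest in hybrids and then U. graciosus at 36 °C, followed by hybrids at 40 °C, U. ornatus at 36 °C, U. graciosus at 40 °C and U. ornatus at 40 °C. Hybrids at 36 °C led for GLUL because of B. Their median was 274 CPM, below 409 CPM in U. graciosus at 36 °C and 279 CPM in hybrids at 40 °C. For ATIC the last 2 places were U. ornatus at 36 °C and at 40 °C, below all 4 groups of the other lineages. Neighbouring groups in these orders overlapped, except U. graciosus at 36 °C and hybrids at 40 °C for GLUL. For ADSL and XDH every pair of neighbours overlapped too, with XDH highest in U. ornatus at 40 °C because of O.

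The members did not all vary together. With each gene centred on its lineage mean of log2 CPM, over 18 libraries that share depth and scaling between genes, Pearson's r was 0.73 for PPAT with GLUL, and 0.52 without B. It was 0.74 for ADSL with ATIC, and 0.64 without O. ADSL and XDH ran opposite, at -0.72, and at -0.60 without O. ADSL was nearly unrelated to GLUL, at 0.05. These values describe the 18 libraries and carry no test.

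The genes most like each member by the same measure were taken from the 10540 named genes that averaged 1 CPM or more. For PPAT they were FBXO9 (r = 0.91), NT5C2 (0.90) and LRRC70 (0.89), and for ADSL they were AOX1 (0.88), CADM2 (0.87) and ZW10 (0.87). For ATIC they were PRKAA1 (0.94), GK5 (0.93) and F13B (0.93). For GLUL they were SARDH (0.81), FUCA1 (0.81) and BPHL (0.81), with SARDH at 351 CPM in B. Those for XDH included PIGV (0.84) and GMCL1 (0.84), and both were highest in O.

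The rest of the route was read from a list of 90 symbols, synonyms included, of which 70 had a row and 68 were tested. PRPS1, a PRPP synthetase that supplies the substrate of PPAT, was the only one called for the averaged heat difference, and it was higher at 40 °C. In hybrids its levels were 27.0, 25.5 and 40.8 CPM in I, K and X, against 20.9, 21.6 and 19.8 CPM in A, B and D. In U. graciosus it stood at 29.3, 29.5 and 25 CPM in P, Q and T, against 20.9, 23.2 and 18.9 CPM in J, R and S. In U. ornatus it stood at 31.2, 25.5 and 34.9 CPM in L, N and O, against 19.7, 15.5 and 14.5 CPM in E, F and H. All 9 heated animals lay above every 36 °C animal of their lineage, as for 0.441% of all genes, and the shares with such a separation in 1 lineage were 5.11% in hybrids, 7.25% in U. graciosus and 12.1% in U. ornatus. The difference was 0.63 (SE 0.12), with an adjusted p of 0.0266 by edgeR, and 0.536% of all genes were called higher. Within lineages the PRPS1 difference was 0.58 in hybrids, 0.41 in U. graciosus and 0.88 in U. ornatus. None of them was called (adjusted p = 0.570, 0.825 and 0.0529 by edgeR). The averaged difference was called in all 6 other settings and in 11 of 18 fits with 1 library left out. The call was lost without A, B, D, R, S, F or O, where the adjusted p reached 0.0663 without O. In those fits only 0.0369% (without R) to 0.265% (without A) of all genes were called, against 0.996% with all libraries. The averaged PRPS1 difference stayed at 0.54 to 0.67 over the 18 fits. PRPS2, another PRPP synthetase of the list, averaged 2187 CPM over all libraries and was not called for heat. Its averaged heat difference was -0.30 (SE 0.24, adjusted p = 0.541 by edgeR). Within lineages the PRPS2 difference was -0.38 in hybrids, 0.03 in U. graciosus and -0.55 in U. ornatus.

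Within U. ornatus 2 of the 68 were called for heat, both lower, where 0.397% of all genes were called lower. NT5C3A, a 5′-nucleotidase that acts mainly on pyrimidine nucleotides, averaged 21.5 ± 4.65 CPM at 40 °C and 51.2 ± 2.57 CPM at 36 °C (SD, n = 3 each), a difference of -1.25 (SE 0.23, adjusted p = 0.0285 by edgeR). MTHFS, which returns formyl folate to the one-carbon pool, averaged 6.14 ± 1.07 CPM at 40 °C and 17.4 ± 4.40 CPM at 36 °C (SD, n = 3 each), a difference of -1.50 (SE 0.31, adjusted p = 0.0423 by edgeR). Neither pair of groups overlapped, as for 11% of all genes lower at 40 °C in U. ornatus. Fitted on the U. ornatus animals alone, both calls were lost, at an adjusted p of 0.180, and 0% of all 14667 genes tested there were called. Without O both stood at 0.122, where 0.0371% of all genes were called. Few or no genes were called in these 2 fits, so they cannot separate a weakness of NT5C3A or MTHFS from that general drop. With 1 library left out NT5C3A was called in 13 of 18 fits, lost without N, O, E, F or H, and MTHFS in 3 of 18, those without K, X or T. MTHFS was lost without S, where 0.511% of all genes were called, and kept without K, where 0.406% were. In hybrids and U. graciosus 0 of 68 were called for heat. Over the 68 genes the median averaged heat difference was -0.11, and 25 lay above 0. Over all genes the median was 0.03 and 53.8% lay above 0.

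Between hybrids and U. ornatus 13 of the 68 were higher in hybrids and 4 lower, 18.2% and 16.9% being the shares of all genes in those directions. GOT2, the mitochondrial aspartate aminotransferase, averaged 151 ± 42.0 CPM in hybrids and 64.6 ± 12.2 CPM in U. ornatus (SD, n = 6 each), and all hybrids lay above all U. ornatus, as for 6.62% of all genes. The difference was 1.23 (SE 0.20, adjusted p = 0.000386 by edgeR). ADSS1, which turns IMP toward AMP, averaged 12.8 ± 3.57 CPM in hybrids and 6.45 ± 1.14 CPM in U. ornatus (SD, n = 6 each) without overlap, a difference of 0.99 (SE 0.19, adjusted p = 0.00114 by edgeR). GOT2 and ADSS1 also lay above the parental midpoint, by 0.96 (adjusted p = 0.00181) and 0.68 (adjusted p = 0.0108). Hybrids and U. graciosus overlapped for both. Neither was called between them, at 0.69 for GOT2 and 0.36 for ADSS1 (adjusted p = 0.101 and 0.369 by edgeR), where 1.82% of all genes were. ADSS2, of the same list as ADSS1, lay lower in hybrids than in U. ornatus and was not called. Its difference was -0.63 (SE 0.28, adjusted p = 0.0884 by edgeR).

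The molybdenum cofactor that XDH needs is begun by MOCS1, which averaged 133 ± 62.3 CPM in hybrids, 122 ± 32.7 CPM in U. graciosus and 38.3 ± 14.2 CPM in U. ornatus (SD, n = 6 each). It was higher by 1.79 (SE 0.33) in hybrids than in U. ornatus (adjusted p = 0.000865 by edgeR) and by 1.72 (SE 0.33) in U. graciosus than in U. ornatus (adjusted p = 0.00128). X, at 29.1 CPM, was the only hybrid within the U. ornatus range. The other 4 cofactor genes, MOCS2, MOCS3, GPHN and MOCOS, were called in no lineage comparison. All 5 cofactor genes had an averaged heat difference below 0, with a median of -0.34, and none was called. Over all genes the median was 0.03, 53.8% lay above 0 and 0.996% were called.

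SLC2A9, known in mammals as a urate transporter, ran the other way. Hybrids ran from 0.32 to 4.65 CPM, the highest being X and the median 0.63 CPM, and U. graciosus from 0.34 to 1.48 CPM with a median of 0.84 CPM. In U. ornatus the levels were 15.5, 15.8 and 49.6 CPM in L, N and O at 40 °C, against 6.58, 3.04 and 4.92 CPM in E, F and H at 36 °C. It was lower in hybrids than in U. ornatus, with a log2 difference of -3.38 (SE 0.56, adjusted p = 0.000398 by edgeR). It was lower in U. graciosus than in U. ornatus too, with a difference of -3.71 (SE 0.58, adjusted p = 0.000263), and U. graciosus and U. ornatus did not overlap, as for 7.31% of all genes lower in U. graciosus. Both differences were called in every other setting run and with each library left out. Heated U. ornatus lay above those at 36 °C without overlap, as for 12.1% of all genes there. The SLC2A9 heat difference of 2.47 (SE 0.75) in U. ornatus was not called (adjusted p = 0.124 by edgeR).

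**Figure D5:**
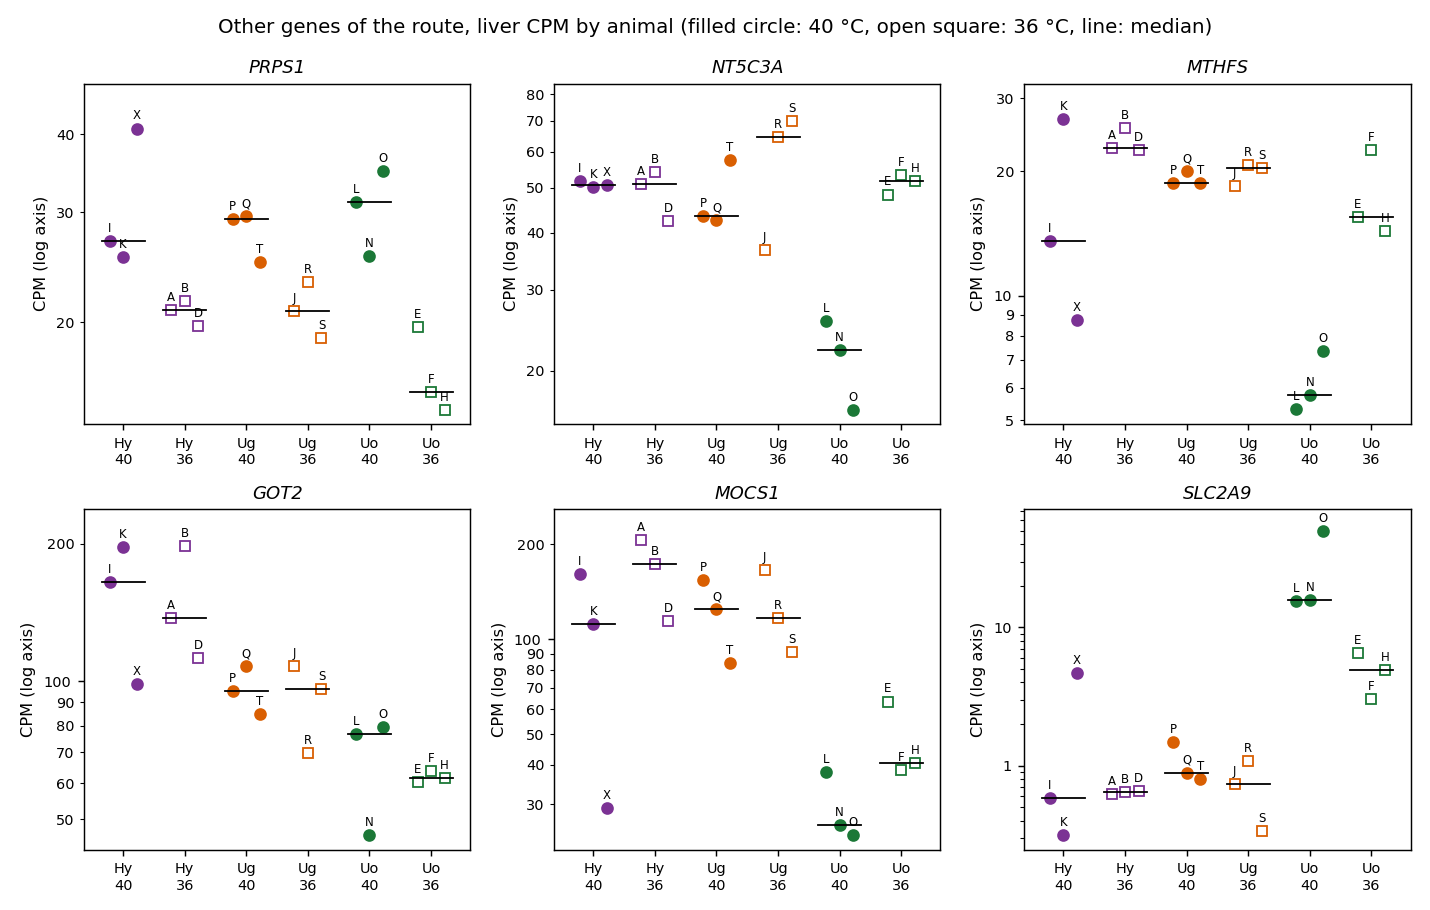
Liver CPM (log axis) by animal of 6 other genes of the route; filled circles are 40 °C animals, open squares 36 °C animals and lines group medians. For PRPS1 all heated animals lay above those at 36 °C of their lineage, and only the difference averaged over lineages was called. NT5C3A and MTHFS were lower at 40 °C in U. ornatus. GOT2 and MOCS1 were higher in hybrids than in U. ornatus, and SLC2A9 was lower in hybrids and in U. graciosus than in U. ornatus.

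Between the parents 9 of the 68 were higher and 7 lower in U. graciosus, with 16.0% and 16.1% of all genes. ADA2, an adenosine deaminase, averaged 57.3 ± 23.2 CPM in U. graciosus and 13.9 ± 4.25 CPM in U. ornatus (SD, n = 6 each), a difference of 2.04 (SE 0.30, adjusted p = 0.000153 by edgeR). GCSH, the H protein of the glycine cleavage system, averaged 502 ± 128 CPM in U. graciosus and 188 ± 31.4 CPM in U. ornatus (SD, n = 6 each), a difference of 1.41 (SE 0.25, adjusted p = 0.000644 by edgeR). Neither pair overlapped, as for 7.23% of all genes higher in U. graciosus. PFAS, a further enzyme of de novo synthesis and the only one of its list beside the members, was lower in U. graciosus than in U. ornatus, with a difference of -1.31 (SE 0.40, adjusted p = 0.0196). It thus differed between the parents in the opposite direction to ATIC. PFAS was highest in O, at 824 CPM against no more than 763 CPM elsewhere. How its difference depends on O, on other libraries or on the setting was not tested.

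MTHFD2L, a mitochondrial folate enzyme, was the only gene of the 68 called between hybrids and U. graciosus, at -0.96 (SE 0.19, adjusted p = 0.0161 by edgeR), where 1.0% of all genes were called lower. It averaged 5.22 ± 1.73 CPM in hybrids, 10 ± 1.25 CPM in U. graciosus and 4.16 ± 0.73 CPM in U. ornatus (SD, n = 6 each), and no hybrid reached the lowest U. graciosus, as for 1.09% of all genes. U. graciosus lay above U. ornatus by 1.28 (SE 0.19, adjusted p = 0.000198). Against the parental midpoint 5 of the 68 were higher in hybrids and 2 lower, with 9.78% and 6.55% of all genes. GLS2, a glutaminase, was higher by 2.68 (SE 0.63, adjusted p = 0.0100), on only 232, 41 and 23 counts summed over the 6 hybrids, the 6 U. graciosus and the 6 U. ornatus. AMPD3, an AMP deaminase, was lower, with a difference of -0.80 (SE 0.23, adjusted p = 0.0301), a call lost without K, X, A, B, P or R (adjusted p up to 0.0846). That of MTHFD2L against U. graciosus was lost without A (adjusted p = 0.0518).

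By list, the one-carbon and glycine genes (17 tested) had 3 higher and none lower in hybrids against U. ornatus, with 14 of 17 above 0 and a median of 0.43, against 51.1% above 0 and a median of 0.02 over all genes. Called shares over all genes were 18.2% higher and 16.9% lower, near the 3 of 17. The 10 breakdown genes other than XDH had 2 higher (ADA2 and NT5C3A, the latter acting mainly on pyrimidine nucleotides) and 2 lower. The 11 glutamine, glutamate and ammonia genes had 3 higher and 1 lower. Of the 6 tested urea cycle genes 3 were higher in hybrids than in U. ornatus and none lower, beside the same 18.2% and 16.9%. CPS1, which starts the urea cycle in ureotelic vertebrates such as mammals, did not pass the filter and was singled out after its values were seen. It had 423 counts in X and 10 in the other 17 libraries together, of which 12 had 0 and none more than 2. X thus stood alone for CPS1, as O did for XDH. The 5 salvage genes and the 4 PRPP supply genes had none called in that comparison.

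Library B also held the highest level of other route genes than GLUL and PPAT. Of the 68, 10 were highest in B (14.7%), against 5.51% of all genes tested, by 1.001-fold (GOT2) to 2.43-fold (MTHFD1) over the next library. Chosen after the values were seen, MTHFD1, which makes the formyl folate used in purine synthesis, stood at 5961 CPM in B and at no more than 2450 CPM elsewhere, and PSAT1, an enzyme of serine synthesis, at 1581 CPM in B and at no more than 1074 CPM elsewhere. B had the highest hepatocyte marker sum and a quality weight of 0.657. Of the 68 genes 5 were highest in O (7.35%), against 9.98% of all genes, among them SLC2A9 and, chosen after the values were seen, ARG2, a mitochondrial arginase, at 254 CPM in O and no more than 121 CPM elsewhere. The part of depth, quality or cell makeup in these single-animal levels was not tested.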

How the data were processed

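Libraries from 18 livers were directional, per the labels' protocols. The submitters' processing notes name Trim Galore 0.6.4, STAR, Subread and DESeq2; the series design names the Sceloporus undulatus genome, of another genus, as the target. The build, annotation, strand setting and rule for multiply mapped reads were not given in the sources used here, so counts of overlapping or near-identical genes are uncertain. The authors deposited unnormalised counts, 1 row per gene and 22773 rows, of which 9041 have placeholder names. Rows were matched to members by symbol, and placeholder rows were not used for members.

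Genes passing edgeR's filterByExpr on the 6 groups (15856) were fitted with edgeR 4.0.16 in R 4.3.3 (TMM, robust quasi-likelihood, 1 mean per group, all 18 libraries), with Benjamini-Hochberg adjustment over all genes of a comparison. SE is the size of the log2 difference divided by the root of F. Likeness used log2 CPM with a prior count of 2. The code was tested on simulated data. The named genes are the members, up to 4 called genes of the route per comparison by p, and the 3 genes most like each member, except items that are not reported here. Members, lists and alternatives were chosen with earlier results of these data known. Alternatives were DESeq2 1.42.0, RLE factors, no filter, limma 3.58.1 voom with quality weights, halved counts (71.8% to 76.4% of counts from 1 to 20 in a library were even), only the groups compared, 1 temperature at a time, X, T and O left out, and each library left out. Intervals of sampling are not given. SDs cover the spread between the animals named, while SEs rest on an estimate of each gene's spread shared by the 6 groups.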

Additional observations from a re-analysis of the deposited data

Results flagged for a closer look

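Each member was checked for an animal far from the rest of its lineage or temperature, by the ratio of its gap to the range, in 25 groups of 6 or 9 animals. For values of normal spread chance marks about 1 group in 20, and 7 were marked here. The levels were not checked for such a spread, and each group mixes temperatures or lineages. Every animal also enters both a lineage group and a temperature group, so the 7 cannot be set against that rate. XDH in O, at 90.6 CPM, lay far above the other U. ornatus, the next being 2.98 CPM, and above the other heated animals, the next being 3.04 CPM. GLUL in B, at 1679 CPM, lay far above the other hybrids, the next being 304 CPM, and above the other 36 °C animals, the next being 411 CPM. PPAT in B, at 893 CPM, lay above the other 36 °C animals, the next being 525 CPM. GLUL in F, at 374 CPM, lay above the other U. ornatus, the next being 217 CPM. ATIC in X, at 1313 CPM, lay below the other hybrids, the next being 3057 CPM. No cause of these levels was tested.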

How the results depend on the processing

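For the averaged heat difference, the count of called members was 2 with DESeq2 and 0 in the other settings. DESeq2 called 5.39% of the genes it gave an adjusted p there. For hybrids against U. ornatus the member count was 3 as reported, with 35.2% of all genes called. It was 1 with voom (45.1% of all genes), 1 without X, T and O together (39.7%) and 0 with only the groups compared (31.3%). It was 0 at 36 °C and 1 at 40 °C (18.4% each), and 0 to 3 with 1 library left out. For U. graciosus against U. ornatus it was 1 as reported (32.2% of all genes), 0 at 36 °C (14.8%) and 0 at 40 °C (15.9%). With 1 library left out it was 0 to 2. Against the parental midpoint it was 0 as reported, with 16.3% of all genes called. It was 1 with DESeq2 (GLUL, 0.85), which called 23.4% of the genes it gave an adjusted p. It was 1 with voom (ATIC, 0.50, beside 29.5% of all genes) and 1 without X, T and O (ATIC, 0.46, beside 19.5%). With 1 library left out it was 0 to 1. Of the 55 member differences none of the 4 called turned sign in any setting. Among those of averaged heat or with an unadjusted p under 0.05, signs turned as follows. With X, T and O left out, XDH stood at -0.47 for heat in U. ornatus, -0.084 for averaged heat, 0.48 and 0.68 for the heat differences of hybrids and of U. graciosus against that of U. ornatus, and 0.14 for U. graciosus against U. ornatus; ADSL stood at 0.046 for averaged heat, and at 0.051 with voom. With 1 library left out, XDH ran from -0.48 to 4.61, -0.17 to 1.65, -4.93 to 0.48, -5.00 to 0.46 and -2.71 to 0.012 in the same 5 comparisons, the end of turned sign being without O each time, and GLUL for heat in hybrids from -1.84 to 0.15, the upper value being without B. Of the other 39 differences, all with an unadjusted p of 0.05 or more, 22 turned sign in some setting. The widest for GLUL were without B, at -0.19 for hybrids against U. graciosus (0.59 as reported) and at 1.09 and 0.83 for the heat difference of hybrids against that of U. graciosus and of U. ornatus. ATIC was called in 6 of 9 other settings and 9 of 18 fits with 1 library left out for hybrids against U. ornatus, and in 7 of 9 and 13 of 18 for the parents. Beyond these dependences on O and B, the cause was not tested. No paired analysis was possible because each animal has a letter of its own and a single temperature. With 3 animals a group, the PPAT and GLUL differences had SEs of 0.39 to 0.56 within a lineage. These SEs rest on an estimate of each gene's spread shared by the 6 groups. They do not measure the spread of that lineage's own animals.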
